A study of Homo sapiens with 27 samples.

Results

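The 40 genes described here encode keratins, parts of the hemidesmosome and of its ligand laminin-332, parts of the desmosome, other epithelial adhesion proteins, epithelial transcription factors, and differentiation products of squamous epithelium. The rule that selects them is a list of gene names with no cut-off on a measured value. The members were, however, chosen with earlier results of these data known. Their counts beside the shares of all genes therefore describe the list and are not an independent test. They are 40 of the 58721 genes of the count table and comprise 12 keratins and 28 other genes. The keratins are described apart from the rest because they share sequence with one another and with pseudogenes.

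RNA was sequenced from A375, an established human melanoma line that carries an activating mutation of the kinase BRAF. Control cells, whose genotype is given as wild type, carried a guide against GFP, a gene that human cells lack. TADA2B knockout cells carried guide 1 or guide 2 against TADA2B, which encodes an adaptor of the SAGA complex, a coactivator that acetylates histones. Each of these 3 populations was kept for 24 h in DMSO (the solvent), in 20 nM trametinib (which inhibits MEK) or in 1 µM vemurafenib (an inhibitor of mutant BRAF), and each of the 9 resulting groups has 3 libraries. The labels do not say whether a guide population was a clone or a pool, nor whether replicates were grown apart, so p-values reflect library-to-library spread that may be only technical.

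Keratins are the intermediate filament proteins of epithelial cells, and a filament is built from equal numbers of type I and type II chains. In the basal layer of the epidermis, keratin filaments are anchored to the basement membrane by hemidesmosomes, in which integrin alpha 6 beta 4 and collagen XVII span the membrane, plectin and the epithelial form of dystonin tie them to keratin, and laminin-332 is the ligand outside the cell. Between neighbouring cells the filaments end at desmosomes, which join cadherins of the desmoglein and desmocollin families to plakophilins, plakoglobin and desmoplakin. Melanocytes lie among basal keratinocytes but arise from the neural crest, and they do not build these junctions as keratinocytes do.

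The libraries held between 67502300 and 92513726 counts. Values are CPM, counts scaled to library size with TMM factors, log2 fold changes are given with their SE, and levels with the SD of 3 libraries where they are means. A gene was called changed at an adjusted p under 0.05 in edgeR's quasi-likelihood test over all 25199 genes that passed a filter on low counts. The TADA2B transcript itself stood at 31.2 ± 0.931 CPM in the control libraries in DMSO, at 30.4 ± 0.773 CPM with guide 1 and at 28.6 ± 1.21 CPM with guide 2. Its knockout effect was -0.08 ± 0.037 (log2) in DMSO, which did not pass the test, -0.37 ± 0.036 in trametinib and -0.52 ± 0.036 in vemurafenib. A count over the whole gene does not measure a small deletion at a guide's site, so the loss of TADA2B was not checked by these counts, and knockout cells are the libraries labelled as such. Mitochondrial transcripts made up 1.58 to 1.68% of counts in control DMSO libraries and 2.33 to 2.74% in knockout DMSO libraries, and their part in the results was not tested.

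By its defining markers the line did not look like keratinocytes in any group. KRT1 had 0 counts in all 27 libraries, DSG3 reached at most 0.0149 CPM, TP63 at most 0.353 CPM and KRT5 at most 0.645 CPM. KRT14 lay between 3.32 and 15.0 CPM, and KRT10 between 37.4 and 55.1 CPM. SOX10, a transcription factor of the melanocyte lineage, stood at 884 ± 33.4 CPM in control DMSO libraries, at 459 ± 6.37 with guide 1 and at 274 ± 6.84 with guide 2 (knockout effect -1.32 ± 0.031, log2). The summed level of 8 melanocyte and melanoma markers lay at 1005 to 1076 CPM in control DMSO libraries, 553 to 567 CPM with guide 1 and 344 to 361 CPM with guide 2, while that of 6 markers of simple epithelium lay at 216 to 231, 316 to 318 and 338 to 350.0 CPM. SOX10 makes up most of the melanocyte and melanoma sum in these DMSO libraries. Of the other genes in that sum, PMEL, MLANA, TYR and TYRP1 were at most 2.34, 2.08, 0.281 and 2.27 CPM in any library. Over all libraries MITF lay between 52.1 and 152 CPM, S100B between 17.3 and 98.8 CPM and DCT between 0.128 and 1063 CPM. KRT8 and KRT18, which are members here, make up most of the simple epithelium sum, and CDH1, the cadherin that defines epithelia, was at most 0.332 CPM. Another of the 6, the epithelial splicing regulator ESRP1, stood at 0.376 ± 0.0569 CPM in control DMSO libraries, 1.14 ± 0.248 with guide 1 and 0.716 ± 0.203 with guide 2, and at 9.56 ± 0.608, 6.56 ± 0.483 and 4.04 ± 0.366 CPM in trametinib. The sums of 6 fibroblast markers (16.3 to 17.2 CPM in control DMSO libraries, 37.2 to 48.6 CPM in knockout DMSO libraries) and 5 leukocyte markers (16.9 to 17.3 and 25.5 to 36.5 CPM) were also higher in the knockout, and that of 4 endothelial markers was lower (16.1 to 16.6 and 7.91 to 8.97 CPM). In such bulk samples, fewer cells of a type and less RNA per cell cannot be told apart, and the part of these markers in the results was not tested.

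Of the 40 members, 34 passed the filter on low counts, all 12 keratins and 22 of the 28 others. The desmosomal genes DSG3 and PKP1, the transcription factors OVOL1 and GRHL2, and the cornified envelope genes IVL and SPRR1B did not pass. SPRR1B had 0 counts in every library, where 3 counts would correspond to 0.0307 to 0.0447 CPM depending on the library, a limit that covers counting error only. The highest library of the other 5 was at 0.0149 CPM for DSG3, 0.0819 CPM for PKP1, 0.109 CPM for OVOL1, 0.102 CPM for GRHL2 and 0.104 CPM for IVL. Since a gene can pass the filter through the group in which it is high, counts over the 34 describe them and are not given as support for a direction.

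With TADA2B knocked out, most of the tested junction genes and keratins were higher. Among the 34 tested members 30 were called higher and 3 lower in DMSO, beside 29.3% of all tested genes called higher and 57.9% called in either direction. In trametinib the counts were 29 higher and 2 lower (27.1% of all genes higher, 55.9% called), and in vemurafenib 28 higher and 2 lower (27.3% and 55.6%). At least 2-fold higher were 18, 21 and 20 members in DMSO, trametinib and vemurafenib, beside 9.04%, 8.42% and 8.47% of all genes. The median knockout effect over the 34 was 1.08, 1.37 and 1.29 (log2), and that over all tested genes 0.00, -0.02 and -0.01. Counted only over members that control cells already expressed at 1 CPM or more in the same treatment, 6 of 7 keratins and 15 of 17 others were called higher in DMSO, 6 of 6 and 13 of 15 in trametinib, and 4 of 5 and 13 of 15 in vemurafenib, beside 33.2%, 30.4% and 30.8% of all genes at that level.

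The libraries of the 3 treatments are separate but come from the same 3 cell populations. Of the 34 tested members, 27 were called higher in the knockout (mean of both guides) in DMSO, in trametinib and in vemurafenib alike, beside 14.4% of all genes. With each guide alone called higher in all 3 treatments there were 23 members, beside 10.8% of all genes. KRT5, KRT6A, KRT81 and S100A2 were among the 27 and not among the 23. None of the counts in this paragraph was limited to members that control cells expressed at 1 CPM or more. At least 2-fold higher in each treatment were 14 members, beside 3.84% of all genes: COL17A1, LAMB3, DSP, DSC2, PKP2, JUP, GRHL3, SFN and the keratins KRT7, KRT8, KRT15, KRT16, KRT19 and KRT80. ITGA6 was the single member called lower in all 3 treatments, beside 14.1% of all genes. The plot of knockout effects by treatment shows the 34 members in the order of their roles.

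**Figure D1:**
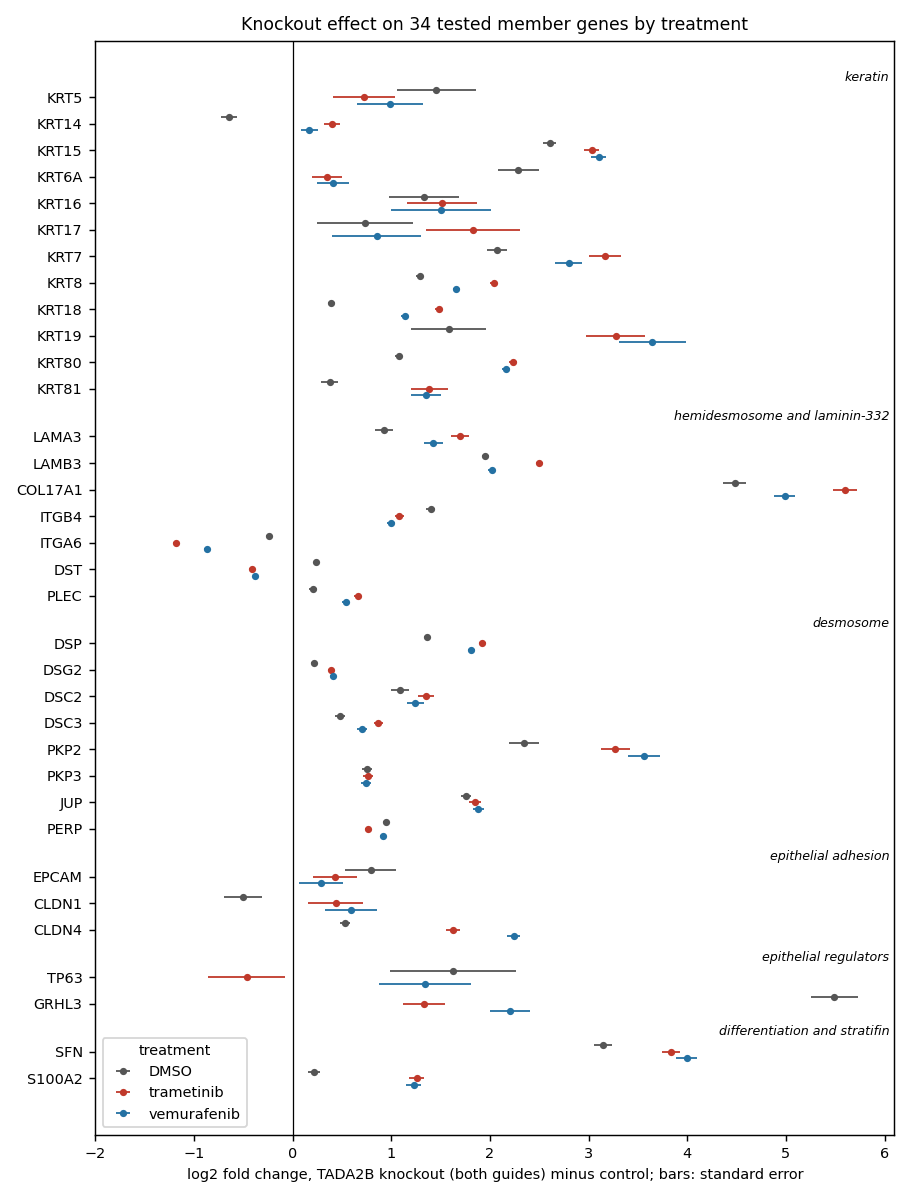
Knockout effect of 34 tested members. Points give the log2 fold change of TADA2B knockout cells (mean of both guides) against control cells on the horizontal axis in DMSO (grey), trametinib (red) and vemurafenib (blue), bars give the standard error, and genes are grouped by role. COL17A1 lies farthest to the right in trametinib at 5.60, GRHL3 in DMSO at 5.49, and ITGA6 lies left of 0 in all 3 treatments.

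COL17A1, which encodes the transmembrane collagen of the hemidesmosome, was at about 1 CPM or less in control cells and higher in all knockout libraries. In DMSO its level was 0.388, 0.584 and 0.588 CPM in the control libraries, 11.7, 9.73 and 12.0 CPM with guide 1 and 12.2, 11.6 and 12.8 CPM with guide 2. In trametinib it was 0.416, 0.277 and 0.353 CPM in control cells, 16.2, 16.6 and 16.3 CPM with guide 1 and 18.8, 17.1 and 16.7 CPM with guide 2. In vemurafenib it was 0.589, 1.03 and 0.600 CPM in control cells, 21.5, 21.3 and 22.5 CPM with guide 1 and 24.5, 24.9 and 24.7 CPM with guide 2. All 18 knockout libraries lay above all 9 control libraries, by a knockout effect of 4.48 ± 0.12 in DMSO (adjusted p = 6.7e-34), 5.60 ± 0.12 in trametinib and 4.99 ± 0.10 in vemurafenib. The guides did not differ past the threshold in any treatment, with differences of 0.13, 0.10 and 0.18 (guide 2 minus guide 1, log2).

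LAMA3 and LAMB3, which encode chains of laminin-332, were called higher in the knockout in all 3 treatments. LAMB3 stood at 20.0, 20.8 and 20.6 CPM in control DMSO libraries, at 70.1, 68.7 and 66.9 CPM with guide 1 and at 90.0, 90.5 and 94.4 CPM with guide 2, and its knockout effect was 1.95 ± 0.037 in DMSO, 2.50 ± 0.037 in trametinib and 2.02 ± 0.035 in vemurafenib (adjusted p at most 1.2e-39). LAMA3 stood at 2.76, 3.32 and 3.66 CPM in control DMSO libraries, 5.40, 5.71 and 5.21 CPM with guide 1 and 6.91, 6.85 and 7.29 CPM with guide 2, with effects of 0.93 ± 0.091, 1.70 ± 0.092 and 1.43 ± 0.095. Neither gene's knockout libraries overlapped with the control libraries of the same treatment.

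The genes of the integrin chains of the hemidesmosome were called in opposite directions. ITGB4, whose product pairs only with the alpha 6 chain, stood at 19.0, 20.4 and 21.2 CPM in control DMSO libraries, 52.1, 49.6 and 52.8 CPM with guide 1 and 54.4, 52.4 and 59.2 CPM with guide 2, and rose by 1.40 ± 0.044 in DMSO, 1.08 ± 0.042 in trametinib and 0.99 ± 0.042 in vemurafenib. ITGA6, whose product also pairs with the beta 1 chain, stood at 563, 562 and 561 CPM in control DMSO libraries, 592, 583 and 594 CPM with guide 1 and 395, 376 and 377 CPM with guide 2. With guide 1 it was slightly above control in DMSO (0.07 ± 0.028, adjusted p = 0.035) and with guide 2 below it (-0.55 ± 0.028), and the guides differed by -0.62 ± 0.028 (adjusted p = 7.8e-23). In both drugs both guides lay below control, at 189, 185 and 190.3 CPM with guide 1 and 106, 98.8 and 104 CPM with guide 2 against 320.0, 318 and 312 CPM in control cells in trametinib, a knockout effect of -1.19 ± 0.024, and an effect of -0.87 ± 0.024 in vemurafenib. The ratio of ITGA6 to ITGB4 per kilobase went from 28.8 ± 1.64 in control DMSO libraries to 11.9 ± 0.273 with guide 1 and 7.18 ± 0.514 with guide 2 in DMSO, and to 3.64 ± 0.171 and 1.79 ± 0.0647 in trametinib. Kilobases cover all annotated exons of a gene, so such ratios compare groups and do not give relative transcript numbers.

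The genes of the linker proteins had knockout effects under 1 on the log2 scale. PLEC, which encodes plectin, stood at 858, 903 and 858 CPM in control DMSO libraries, 1027, 994 and 1008 CPM with guide 1 and 999.5, 979.6 and 1037 CPM with guide 2, and its knockout effect was 0.21 ± 0.036 in DMSO, 0.66 ± 0.037 in trametinib and 0.54 ± 0.037 in vemurafenib. DST, the gene of dystonin, stood at 130.2, 131 and 122 CPM in control DMSO libraries, 150.3, 149.9 and 155 CPM with guide 1 and 149.7, 152 and 148 CPM with guide 2. Its knockout effect was 0.24 ± 0.028 in DMSO and -0.42 ± 0.027 in trametinib and -0.38 ± 0.027 in vemurafenib. Both genes make isoforms for other cell structures, and the counts are summed over a whole gene, so the epithelial isoforms were not measured apart.

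**Figure D2:**
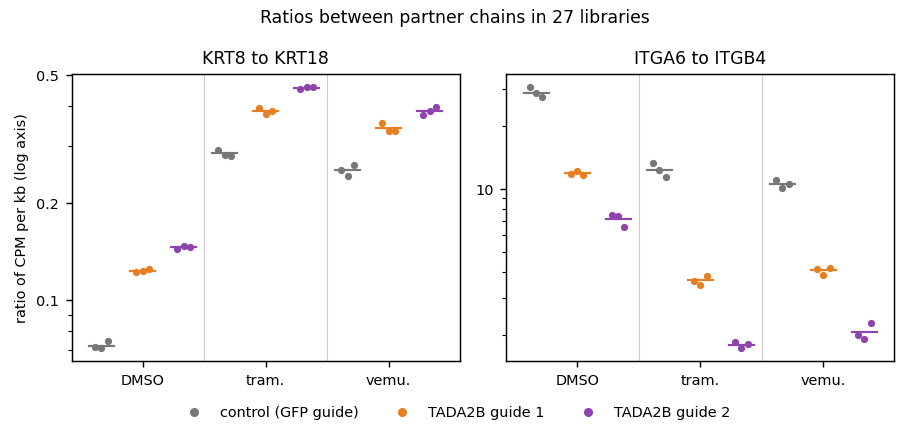
Ratios between the genes of partner chains in each of 27 libraries. The vertical log axis gives the ratio of CPM per kilobase of exon, points are libraries, lines are group means, and colours mark control (grey), guide 1 (orange) and guide 2 (purple). KRT8 to KRT18 is higher with either guide than in control cells of the same treatment, and ITGA6 to ITGB4 is lower.

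The promoters of 3 hemidesmosome members called higher in all 3 treatments are printed to show what lies before their starts. Promoters came from RefSeq on GRCh38.p14, and only the 250 bases before each transcription start were read, 5′ to 3′ on the gene's strand. Of the 40 members 23 matched an entry, with 32 starts in all. The AP-1 motif, searched as TGANTCA on both strands, lay in 8 of the 32 windows (25%) and in 6.57% of all 35116 windows of that length. The 8 starts belong to CLDN4, IVL, LAMA3, LAMB3, PERP, S100A2, SFN and SPRR1B. The Grainyhead motif AACNGGTT lay in 0 of 32 windows (1.49% of all), and the TEAD motif GGAATG in 2 of 32 (11.9% of all). A match is a string of letters and not a bound site. In the printed sequences capitals mark the matches to TGANTCA. The LAMA3 window (chr18:23872770-23873019, plus strand) lies inside the annotated gene, ahead of an internal start. The LAMB3 window (chr1:209651375-209651624, minus strand) also lies inside its annotated gene, ahead of an internal start. It is one of 3 for LAMB3 and the one with a match. The other LAMB3 windows, which reach past the gene's annotated 5′ end, have no match. The COL17A1 window (chr10:104085881-104086130, minus strand) has none.
LAMA3: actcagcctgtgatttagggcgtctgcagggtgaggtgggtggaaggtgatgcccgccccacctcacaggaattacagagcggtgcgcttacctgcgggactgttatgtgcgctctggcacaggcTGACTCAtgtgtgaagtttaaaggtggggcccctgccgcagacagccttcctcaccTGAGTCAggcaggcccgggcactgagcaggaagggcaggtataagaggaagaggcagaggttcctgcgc
LAMB3: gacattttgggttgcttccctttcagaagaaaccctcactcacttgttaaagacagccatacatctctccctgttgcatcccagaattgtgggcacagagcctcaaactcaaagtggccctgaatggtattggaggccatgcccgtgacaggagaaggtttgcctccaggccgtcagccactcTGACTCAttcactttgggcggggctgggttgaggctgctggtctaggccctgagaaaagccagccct
COL17A1: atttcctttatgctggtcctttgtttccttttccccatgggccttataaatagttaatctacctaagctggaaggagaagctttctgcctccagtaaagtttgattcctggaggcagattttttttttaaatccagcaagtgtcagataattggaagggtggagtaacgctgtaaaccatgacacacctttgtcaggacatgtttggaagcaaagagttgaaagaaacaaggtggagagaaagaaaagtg

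Of the 10 desmosome members 8 were tested, and all 8 were called higher in the knockout in each treatment (29.3%, 27.1% and 27.3% of all genes in DMSO, trametinib and vemurafenib). In each treatment 4 of them were at least 2-fold higher (9.04%, 8.42% and 8.47% of all genes). DSP, the gene of desmoplakin, which binds keratin, stood at 27.8, 28.9 and 29.7 CPM in control DMSO libraries, 68.8, 68.7 and 71.2 CPM with guide 1 and 77.8, 76.9 and 81.2 CPM with guide 2. In trametinib it stood at 26.3, 24.6 and 26.2 CPM in control cells, 81.6, 87.0 and 85.6 CPM with guide 1 and 116, 109 and 110.2 CPM with guide 2. No knockout library overlapped with control, and the effect was 1.36 ± 0.034 in DMSO (adjusted p = 1.6e-34), 1.92 ± 0.035 in trametinib and 1.81 ± 0.035 in vemurafenib. JUP, the gene of plakoglobin, rose from 15.7, 16.3 and 16.6 CPM in control DMSO libraries to 49.2, 48.5 and 48.2 CPM with guide 1 and 61.4, 59.7 and 63.6 CPM with guide 2, by 1.76 ± 0.054 in DMSO, 1.85 ± 0.061 in trametinib and 1.88 ± 0.057 in vemurafenib.

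Plakophilins cluster the desmosomal cadherins, and PKP2 and PKP3 both rose. PKP2 stood at 1.19, 0.882 and 0.631 CPM in control DMSO libraries, 3.86, 3.57 and 4.32 CPM with guide 1 and 5.35, 4.88 and 5.94 CPM with guide 2, with effects of 2.34 ± 0.15, 3.27 ± 0.15 and 3.56 ± 0.16 in DMSO, trametinib and vemurafenib. PKP3 stood at 21.1, 20.9 and 20.8 CPM in control DMSO libraries, 32.7, 35.1 and 34.1 CPM with guide 1 and 37.0, 33.9 and 39.0 CPM with guide 2. The effect on PKP3 had overlapping errors in the 3 treatments, at 0.75 ± 0.048, 0.76 ± 0.048 and 0.74 ± 0.048. PKP1, the plakophilin of stratified epithelium, did not pass the filter on low counts.

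Of the desmosomal cadherins, DSC2 rose by more than 2-fold and DSC3 and DSG2 by less. DSC2, a desmocollin made in many epithelia, stood at 2.26, 2.32 and 2.47 CPM in control DMSO libraries, 5.40, 5.01 and 5.14 CPM with guide 1 and 5.28, 4.88 and 4.22 CPM with guide 2, a knockout effect of 1.09 ± 0.093 in DMSO, 1.35 ± 0.08 in trametinib and 1.24 ± 0.086 in vemurafenib. DSC3, a desmocollin of basal epidermis, stood at 12.5, 10.9 and 13.5 CPM in control DMSO libraries, 17.6, 18.0 and 17.9 CPM with guide 1 and 16.0, 16.8 and 16.2 CPM with guide 2, with effects of 0.48 ± 0.05, 0.87 ± 0.048 and 0.70 ± 0.048. DSG2, the desmoglein found in simple epithelium and heart, stood at 93.8, 94.1 and 91.8 CPM in control DMSO libraries, 107, 109 and 109 CPM with guide 1 and 109, 108 and 108 CPM with guide 2, with effects of 0.22 ± 0.029, 0.39 ± 0.03 and 0.41 ± 0.03. PERP, a membrane protein of the desmosome that p53 and p63 are known to activate, stood at 92.9, 96.7 and 102 CPM in control DMSO libraries, 186, 185 and 192 CPM with guide 1 and 191, 189 and 181 CPM with guide 2, with effects of 0.95 ± 0.03, 0.76 ± 0.03 and 0.92 ± 0.03. These genes' knockout libraries lay above the control libraries of the same treatment throughout.

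**Figure D3:**
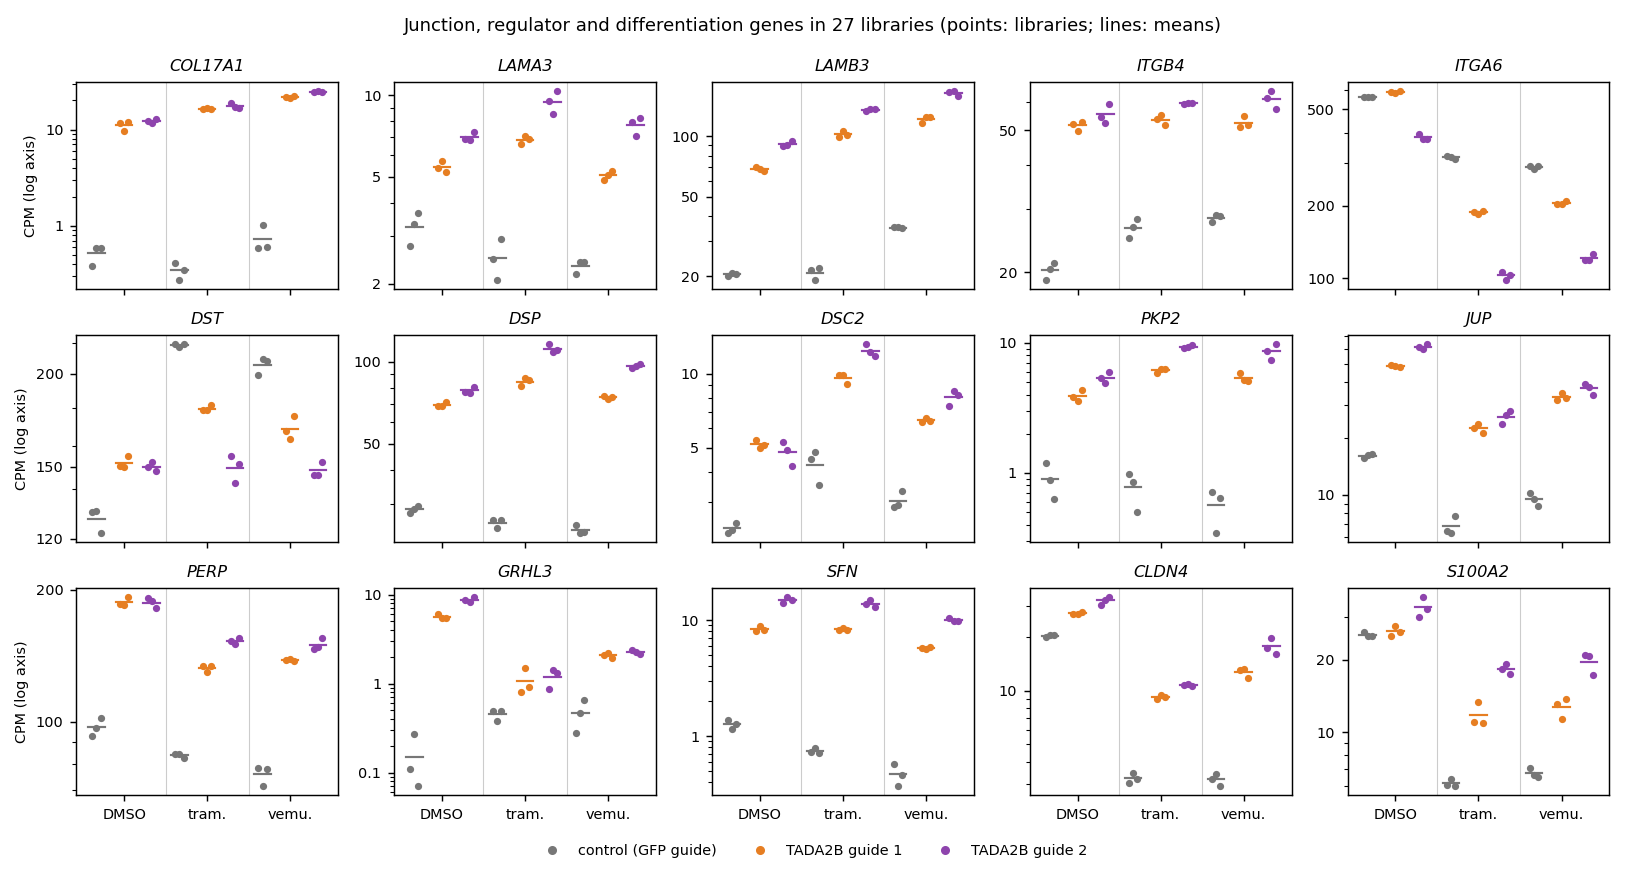
Levels of 15 junction, regulator and differentiation genes in each of 27 libraries. The vertical log axis gives CPM, points are libraries, lines are group means, and colours mark control (grey), guide 1 (orange) and guide 2 (purple) in DMSO, trametinib (tram.) and vemurafenib (vemu.). COL17A1, LAMB3, DSP, PKP2 and SFN stand apart between control and both guides in each treatment, and ITGA6 lies below control in both drugs.

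The other adhesion members differed among themselves. CLDN4, a claudin of tight junctions, stood at 20.1, 20.5 and 20.6 CPM in control DMSO libraries, 27.0, 27.1 and 27.5 CPM with guide 1 and 30.4, 32.4 and 33.5 CPM with guide 2, and its knockout effect was 0.53 ± 0.052 in DMSO, 1.63 ± 0.068 in trametinib and 2.24 ± 0.068 in vemurafenib. CLDN1, the claudin of the epidermal barrier, was at or under 2.59 CPM in every library. It was called lower in DMSO (-0.51 ± 0.19, adjusted p = 0.022), a call lost in DESeq2 (adjusted p = 0.052) and without replicate 1 (-0.39) or 3 (-0.47) of the control DMSO libraries or replicate 3 of guide 1 (-0.42) or of guide 2 (-0.41) in DMSO, and its differences of 0.44 ± 0.28 in trametinib and 0.59 ± 0.27 in vemurafenib did not pass. EPCAM, an adhesion molecule of simple epithelium, was at or under 1.03 CPM in every library. Its effect of 0.79 ± 0.26 in DMSO passed (adjusted p = 0.0075) but not without replicate 3 of the control DMSO libraries (0.58, adjusted p = 0.085), and those of 0.43 ± 0.22 in trametinib and 0.28 ± 0.22 in vemurafenib did not.

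Of the transcription factors, GRHL3 was the one that reached 1 CPM in any group. GRHL3, a Grainyhead factor of epidermal barrier formation, had 8, 21 and 5 counts in the control DMSO libraries, which is 0.111, 0.272 and 0.0718 CPM. With guide 1 it stood at 5.99, 5.50 and 5.47 CPM and with guide 2 at 8.76, 8.22 and 9.38 CPM, a knockout effect of 5.49 ± 0.23 (adjusted p = 3.3e-23). In trametinib it stood at 0.489, 0.385 and 0.489 CPM in control cells, 0.811, 1.48 and 0.916 CPM with guide 1 and 0.881, 1.42 and 1.31 CPM with guide 2, an effect of 1.33 ± 0.21. In vemurafenib it stood at 0.277, 0.472 and 0.664 CPM in control cells, 2.09, 2.24 and 1.92 CPM with guide 1 and 2.36, 2.24 and 2.14 CPM with guide 2, an effect of 2.21 ± 0.20. The knockout libraries were above control in each treatment, and GRHL3 counts in control cells are few. TP63, the master factor of stratified epithelium, had 2, 2 and 2 counts in the control DMSO libraries, 3, 3 and 10 with guide 1 and 3, 15 and 7 with guide 2, and no fold is given at these counts. Its call in DMSO was lost without any one of the control DMSO libraries, replicate 3 of guide 1 or replicate 2 of guide 2 (adjusted p from 0.061 to 0.12), and that in vemurafenib without replicate 3 of control cells (0.10).

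SFN, which encodes stratifin, a 14-3-3 protein of keratinocytes, rose in every treatment. It stood at 1.37, 1.14 and 1.28 CPM in control DMSO libraries, 8.01, 8.86 and 8.27 CPM with guide 1 and 14.0, 15.8 and 14.9 CPM with guide 2. In vemurafenib SFN stood at 0.577, 0.375 and 0.460 CPM in control cells, 5.76, 5.65 and 5.88 CPM with guide 1 and 10.4, 9.85 and 9.87 CPM with guide 2. The groups did not overlap and kept the order control, guide 1, guide 2, with a knockout effect of 3.15 ± 0.088 in DMSO (adjusted p = 1.1e-32), 3.84 ± 0.095 in trametinib and 4.00 ± 0.11 in vemurafenib. S100A2, a calcium-binding protein of basal keratinocytes, stood at 26.0, 24.9 and 25.0 CPM in control DMSO libraries, 25.1, 27.6 and 26.0 CPM with guide 1 and 30.0, 36.3 and 32.5 CPM with guide 2, where guide 1 overlaps with control. Its effect was 0.22 ± 0.062 in DMSO and 1.26 ± 0.074 and 1.23 ± 0.073 in trametinib and vemurafenib. IVL and SPRR1B, which are expressed late in keratinocyte differentiation, did not pass the filter.

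The windows before GRHL3 and SFN are printed because both genes were at least 2-fold higher in all 3 treatments. The GRHL3 window (chr1:24319107-24319356, plus strand), the first of 2 for that gene, holds no match to the AP-1, Grainyhead or TEAD letters, and the SFN window (chr1:26862899-26863148, plus strand) holds 1 match to TGANTCA, in capitals, 170 bases before the start.
GRHL3: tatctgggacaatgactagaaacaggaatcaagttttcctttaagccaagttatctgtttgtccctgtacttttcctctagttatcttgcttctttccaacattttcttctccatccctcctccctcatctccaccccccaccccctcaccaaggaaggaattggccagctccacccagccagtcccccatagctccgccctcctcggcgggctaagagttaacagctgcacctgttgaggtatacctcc
SFN: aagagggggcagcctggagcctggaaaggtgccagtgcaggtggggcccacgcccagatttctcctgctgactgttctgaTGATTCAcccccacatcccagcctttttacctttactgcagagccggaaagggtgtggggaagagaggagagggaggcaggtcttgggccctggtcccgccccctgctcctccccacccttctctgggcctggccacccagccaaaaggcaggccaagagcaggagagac

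The keratins need a caution about shared sequence. Of the distinct 50-base words in the exons of KRT81, 43.7% also occur in another gene (37.6% in KRT86), and KRT81 overlaps KRT86 over 5622 bases in GENCODE. The share was 32.1% for KRT6A (29.1% in KRT6C), 16.8% for KRT14, 16.5% for KRT16, 14.3% for KRT18, 10.1% for KRT8 and 9.02% for KRT17, and it was 2.17% for KRT5 and under 1% for KRT7, KRT15, KRT19 and KRT80. Outside the keratins it was at most 5.02% (PKP2). The sources used here do not give how reads that fit several genes were counted, so values of KRT81, KRT6A, KRT14, KRT16, KRT17, KRT8 and KRT18 are uncertain to that extent. KRT8 and KRT18 also overlap by 1084 bases on opposite strands of chromosome 12, and the kit keeps strand, but the strand setting of the counting is not given either. The 7 keratin members KRT80, KRT7, KRT81, KRT6A, KRT5, KRT8 and KRT18 lie within positions 52168996 to 52952901 of chromosome 12, and KRT15, KRT19, KRT14, KRT16 and KRT17 within 41513743 to 41624842 of chromosome 17. JUP lies on chromosome 17 outside that stretch, at 41754604 to 41786931.

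Most keratins rose in the knockout. Of the 12 keratins, 10 were called higher and 1 lower in DMSO, 12 higher in trametinib, and 10 higher in vemurafenib, with 8, 9 and 8 of them at least 2-fold higher. Of all genes 29.3%, 27.1% and 27.3% were called higher in these treatments, and 9.04%, 8.42% and 8.47% at least 2-fold higher. KRT8 and KRT18 form the keratin pair of simple epithelium. KRT8 stood at 28.4, 30.0 and 31.5 CPM in control DMSO libraries, 65.1, 65.9 and 65.9 CPM with guide 1 and 79.2, 82.4 and 83.0 CPM with guide 2, an effect of 1.29 ± 0.036 (adjusted p = 6.7e-33). KRT18 stood at 187, 198 and 198 CPM in control DMSO libraries, 249.8, 250.2 and 248 CPM with guide 1 and 257, 262 and 266 CPM with guide 2, an effect of 0.39 ± 0.032 (adjusted p = 5.9e-15). In trametinib the effects were 2.04 ± 0.037 for KRT8 and 1.48 ± 0.036 for KRT18, and in vemurafenib 1.66 ± 0.036 and 1.13 ± 0.035. Their ratio per kilobase was 0.0721 ± 0.00190 in control DMSO libraries, 0.123 ± 0.00131 with guide 1 and 0.146 ± 0.00147 with guide 2. The lengths used, 6881 bases for KRT8 and 3218 for KRT18, cover the exons of all annotated transcripts. The ratio thus compares groups and does not give the relative number of KRT8 and KRT18 transcripts.

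KRT7, another type II keratin of simple epithelium, stood at 2.03, 2.32 and 2.30 CPM in control DMSO libraries, 7.93, 7.56 and 7.86 CPM with guide 1 and 9.89, 11.9 and 11.7 CPM with guide 2, an effect of 2.07 ± 0.10 in DMSO, 3.17 ± 0.16 in trametinib and 2.80 ± 0.13 in vemurafenib. KRT80, a type II keratin linked to junctions of differentiating epithelium, stood at 85.5, 91.3 and 85.6 CPM in control DMSO libraries, 168, 162 and 165 CPM with guide 1 and 209, 203 and 208 CPM with guide 2, with effects of 1.08 ± 0.037, 2.23 ± 0.042 and 2.16 ± 0.042. KRT15, a type I keratin of basal epidermis and of hair follicle stem cells, stood at 3.47, 3.26 and 3.32 CPM in control DMSO libraries, 19.5, 21.8 and 21.0 CPM with guide 1 and 19.7, 19.6 and 20.7 CPM with guide 2, with effects of 2.61 ± 0.068, 3.03 ± 0.073 and 3.10 ± 0.078. For these 3 genes no knockout library overlapped with the control libraries of its treatment. KRT19, a type I keratin of simple epithelium, was low, with 13, 2 and 5 counts in the control DMSO libraries and at most 1.91 CPM in any library, and its effects were 1.58 ± 0.38, 3.27 ± 0.30 and 3.65 ± 0.34. The KRT19 effect in DMSO was 2.50 without replicate 1 of the control DMSO libraries and 1.12 without replicate 2.

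KRT14, the type I keratin of basal epidermis, was called lower in DMSO and higher in trametinib. It stood at 8.01, 9.43 and 9.53 CPM in control DMSO libraries, 8.99, 8.51 and 8.10 CPM with guide 1 and 3.32, 4.24 and 4.06 CPM with guide 2. Guide 1 overlapped with control, guide 2 lay below both, and the mean effect was -0.65 ± 0.082. In trametinib KRT14 stood at 7.05, 9.02 and 10.6 CPM in control cells, 14.6, 15.0 and 14.6 CPM with guide 1 and 8.95, 9.55 and 9.19 CPM with guide 2, an effect of 0.40 ± 0.079 in which only guide 1 lay apart from control (0.26 without replicate 1 of control cells in trametinib), and in vemurafenib the effect of 0.17 ± 0.083 did not pass (adjusted p = 0.078). KRT5, its type II partner in the epidermis, lay between 0.0718 and 0.645 CPM. Its effect was 1.46 ± 0.40 in DMSO and 0.72 ± 0.32 in trametinib, and 0.99 ± 0.34 in vemurafenib. The KRT5 call in trametinib (adjusted p = 0.049) was lost with a replicate block (0.059), with no filter on low counts (0.077), in DESeq2 (0.073), in a fit of the compared groups (0.054) and without replicate 1 or 2 of control cells, replicate 1 of guide 1, or replicate 1 or 2 of guide 2 (log2 0.53, 0.47, 0.55, 0.63 and 0.67), and it was 1.27 without replicate 3 of control cells. That in vemurafenib was lost without replicate 3 of control cells (0.76).

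KRT6A, KRT16 and KRT17 are keratins of injured and hyperproliferating epidermis and were low. KRT6A stood at 0.250, 0.143 and 0.258 CPM in control DMSO libraries, 1.30, 1.55 and 1.43 CPM with guide 1 and 0.807, 0.684 and 0.865 CPM with guide 2, an effect of 2.29 ± 0.21, and at 0.35 ± 0.15 in trametinib and 0.41 ± 0.17 in vemurafenib, where the calls were lost with no filter on low counts (adjusted p = 0.14 and 0.098). The KRT6A call in trametinib was also lost with a replicate block (0.054), in DESeq2 (0.052) and without any of 8 of the 9 trametinib libraries, and that in vemurafenib without any of 5 of the 9 vemurafenib libraries. KRT16 was at most 0.644 CPM, with effects of 1.33 ± 0.36, 1.51 ± 0.35 and 1.51 ± 0.51, the last of them lost without replicate 2 of the control libraries in vemurafenib (1.30, adjusted p = 0.053). KRT17 was at most 0.356 CPM, and its effect passed in trametinib (1.83 ± 0.47) and not in DMSO (0.73 ± 0.48) or vemurafenib (0.85 ± 0.45). KRT81, a keratin of hair, stood at 8.41, 8.09 and 7.92 CPM in control DMSO libraries, 8.02, 8.54 and 8.52 CPM with guide 1 and 13.1, 13.9 and 12.9 CPM with guide 2, where guide 1 overlaps with control, and its effects were 0.37 ± 0.09, 1.39 ± 0.19 and 1.35 ± 0.15.

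**Figure D4:**
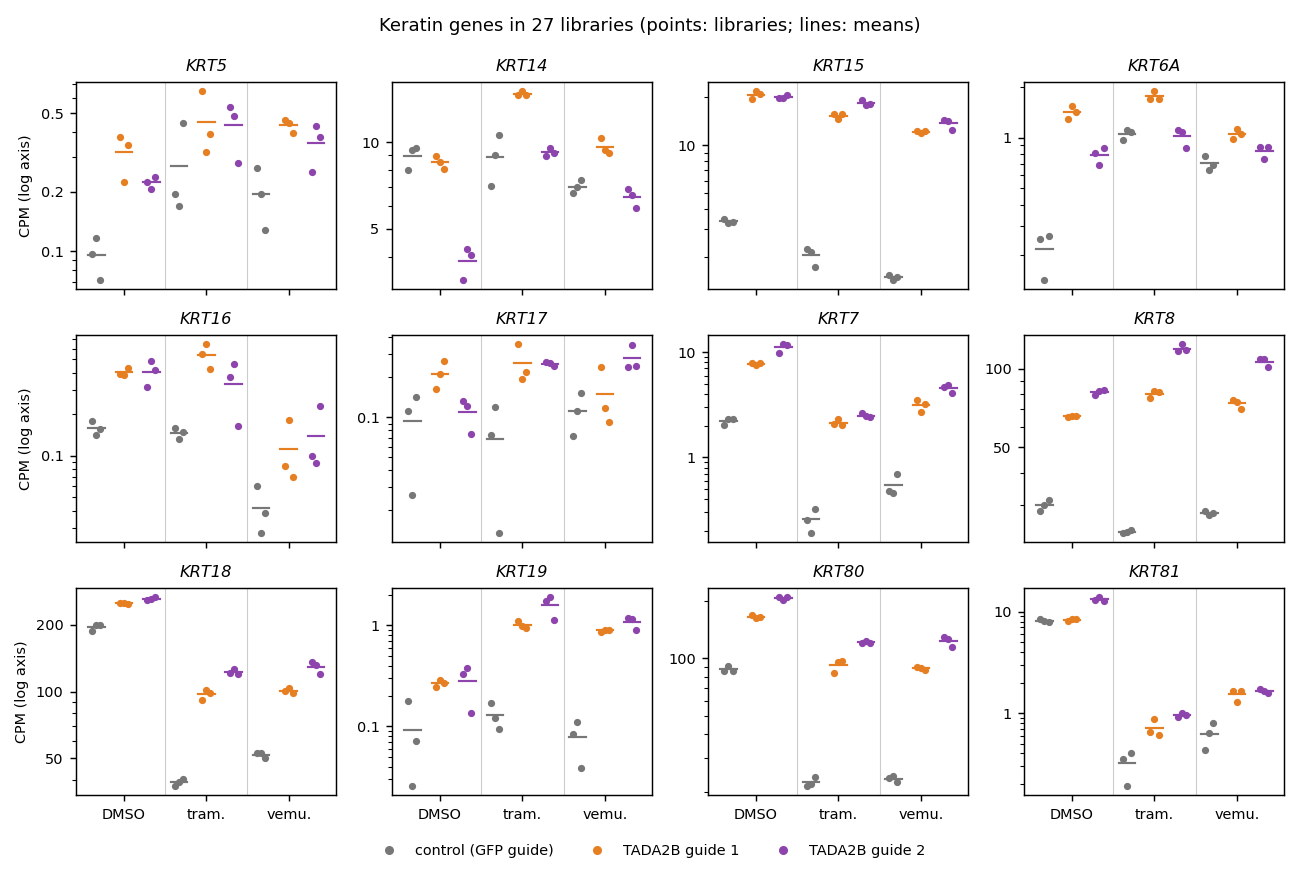
Levels of the 12 keratins in each of 27 libraries. The vertical log axis gives CPM, points are libraries, lines are group means, and colours mark control (grey), guide 1 (orange) and guide 2 (purple) in DMSO, trametinib (tram.) and vemurafenib (vemu.). KRT7, KRT8, KRT15 and KRT80 are higher with both guides in each treatment, and KRT14 with guide 2 lies below control in DMSO.

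The 2 guides were compared with each other, since a knockout effect rests on both. In DMSO 16 of 34 members were called different between guides (11.9% of all genes), in trametinib 22 (19.7%) and in vemurafenib 19 (16.0%). CLDN4, DSP, KRT8, KRT80, LAMA3, LAMB3, PKP2, S100A2 and SFN were higher with guide 2 in all 3 treatments (1.84% of all genes), and ITGA6 and KRT14 were lower with it in all 3 (3.46% of all genes). The difference in SFN was 0.83 ± 0.072 in DMSO, 0.73 ± 0.071 in trametinib and 0.80 ± 0.076 in vemurafenib, and that in LAMB3 was 0.42 ± 0.036, 0.41 ± 0.035 and 0.43 ± 0.035. The difference in PKP2 in DMSO, 0.46 ± 0.13, was lost without replicate 1 (adjusted p = 0.056) or 2 (0.096) of guide 1 or replicate 3 of guide 2 (0.10). For ITGA6 it was -0.62 ± 0.028, -0.87 ± 0.029 and -0.76 ± 0.029. Against control, these 9 genes were called higher with guide 1 in every treatment except S100A2 in DMSO (0.05 ± 0.071).

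In control cells the 2 drugs lowered more members than they raised. Trametinib was followed by 9 members called higher and 18 lower (36.4% and 32.5% of all genes, 69.0% called in all), and vemurafenib by 10 higher and 20 lower (35.7% and 31.6%, 67.3% called). Both comparisons use the same DMSO control libraries. In control cells the melanocyte and melanoma marker sum was 2236 to 2369 CPM in trametinib and 2312 to 2347 CPM in vemurafenib, above the 1005 to 1076 CPM of DMSO, and that of simple epithelium was 71.1 to 75.2 and 87.5 to 91.2 CPM, below the 216 to 231 CPM of DMSO. In any library SOX10 reached at most 1121 CPM and DCT, another gene of the melanocyte and melanoma sum, at most 1063 CPM. The fibroblast sum was 20.4 to 21.9 and 20.0 to 21.8 CPM in the drugs, the leukocyte sum 7.29 to 8.29 and 8.77 to 9.96 CPM, and the endothelial sum 16.8 to 18.0 and 20.8 to 22.3 CPM. Mitochondrial counts were 2.05 to 2.38% in trametinib and 2.21 to 2.34% in vemurafenib in control cells, and 3.13 to 3.60% in knockout cells with either drug. The part of these in the drug responses was not tested. KRT81 fell from 8.41, 8.09 and 7.92 CPM to 0.355, 0.193 and 0.407 CPM in trametinib and 0.433, 0.639 and 0.805 CPM in vemurafenib. The log2 changes of KRT81 were -4.69 ± 0.16 and -3.71 ± 0.14. KRT7 fell from 2.03, 2.32 and 2.30 CPM to 0.257, 0.193 and 0.326 CPM in trametinib and 0.481, 0.458 and 0.690 CPM in vemurafenib. For KRT7 these are log2 changes of -3.11 ± 0.18 and -2.02 ± 0.16. KRT18 went from 187, 198 and 198 CPM to 37.8, 39.2 and 40.2 CPM in trametinib and 52.7, 53.0 and 50.2 CPM in vemurafenib. The log2 changes of KRT18 were -2.32 ± 0.04 and -1.90 ± 0.039. KRT80 went from 85.5, 91.3 and 85.6 CPM to 21.5, 21.9 and 23.7 CPM in trametinib and 23.5, 24.2 and 22.4 CPM in vemurafenib. For KRT80 these are log2 changes of -1.97 ± 0.045 and -1.91 ± 0.045. For these 4 keratins the drug libraries of control cells did not overlap with the DMSO libraries.

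The responses of KRT8, the partner of KRT18, were -0.33 ± 0.042 in trametinib and -0.10 ± 0.041 in vemurafenib. The small change in vemurafenib was lost with no filter on low counts (adjusted p = 0.093) and without replicate 2 (-0.10) or 3 (-0.06) of the control DMSO libraries or replicate 2 (-0.08) or 3 (-0.10) of those in vemurafenib. The KRT8 to KRT18 ratio per kilobase in control cells was 0.285 ± 0.00621 in trametinib and 0.252 ± 0.00961 in vemurafenib, against 0.0721 ± 0.00190 in DMSO. KRT14 did not pass in trametinib (-0.02 ± 0.092) and was lower in vemurafenib (-0.36 ± 0.094). KRT6A was higher in both drugs, at 0.966, 1.11 and 1.09 CPM in trametinib and 0.782, 0.639 and 0.690 CPM in vemurafenib, by 2.28 ± 0.23 and 1.71 ± 0.24.

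Outside the keratins, the claudins, S100A2 and JUP fell in control cells in both drugs. CLDN4 went from 20.1, 20.5 and 20.6 CPM to 3.04, 3.45 and 3.20 CPM in trametinib and 3.18, 3.42 and 2.94 CPM in vemurafenib. The log2 changes of CLDN4 were -2.66 ± 0.072 and -2.68 ± 0.073. The log2 changes of CLDN1 were -2.81 ± 0.27 and -2.61 ± 0.27, and its drug libraries lay below its DMSO libraries. S100A2 went from 26.0, 24.9 and 25.0 CPM to 6.03, 6.36 and 6.00 CPM in trametinib and 7.10, 6.64 and 6.50 CPM in vemurafenib. For S100A2 these are log2 changes of -2.05 ± 0.081 and -1.91 ± 0.08. JUP went from 15.7, 16.3 and 16.6 CPM to 6.41, 6.30 and 7.70 CPM in trametinib and 10.2, 9.50 and 8.76 CPM in vemurafenib. The log2 changes of JUP were -1.25 ± 0.069 and -0.77 ± 0.066. Other desmosome genes differed from JUP. DSP changed by -0.17 ± 0.04 and -0.25 ± 0.04, PKP3 did not pass (-0.06 ± 0.056 and -0.05 ± 0.056), and DSC2 rose by 0.87 ± 0.10 and 0.37 ± 0.11.

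The hemidesmosome genes split in control cells under the drugs. ITGA6 fell from 563, 562 and 561 CPM to 320.0, 318 and 312 CPM in trametinib and 293, 283 and 292 CPM in vemurafenib (log2 -0.83 ± 0.029 and -0.96 ± 0.029), and PLEC changed by -0.90 ± 0.042 and -0.75 ± 0.042. ITGB4 rose by 0.40 ± 0.05 and 0.49 ± 0.05, and DST by 0.78 ± 0.032 and 0.69 ± 0.032. LAMB3 did not pass in trametinib (0.03 ± 0.043) and rose in vemurafenib (0.77 ± 0.041). Between the drugs, LAMB3 was 0.75 ± 0.041 higher in vemurafenib (adjusted p = 3.8e-20), one of 19 members called in that comparison (16.3% of all genes). COL17A1 was called in opposite directions, -0.58 ± 0.23 in trametinib (adjusted p = 0.025) and 0.49 ± 0.20 in vemurafenib (adjusted p = 0.028), at levels of about 1 CPM or less. The COL17A1 calls were lost in a fit of the compared groups alone (adjusted p = 0.092 and 0.11) and when single libraries of control cells were left out. For trametinib these were DMSO replicate 2 (-0.48), DMSO replicate 3 (-0.49) and trametinib replicate 2 (-0.43), and for vemurafenib DMSO replicate 1 (0.31) and vemurafenib replicate 2 (0.19).

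Knockout cells were also followed through the drugs, with 30 members called in trametinib (71.4% of all genes) and 29 in vemurafenib (69.1%). The difference between the responses of knockout and control cells, tested as an interaction, was called for 27 members in trametinib, 20 higher and 7 lower (20.8% and 23.2% of all genes, 43.9% called), and for 24 in vemurafenib, 19 higher and 5 lower (20.0% and 22.4%, 42.5% called). Higher means here that the drug lowered a gene less, or raised it more, in knockout cells. The plot of drug responses in control and knockout cells shows both values for each member.

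**Figure D5:**
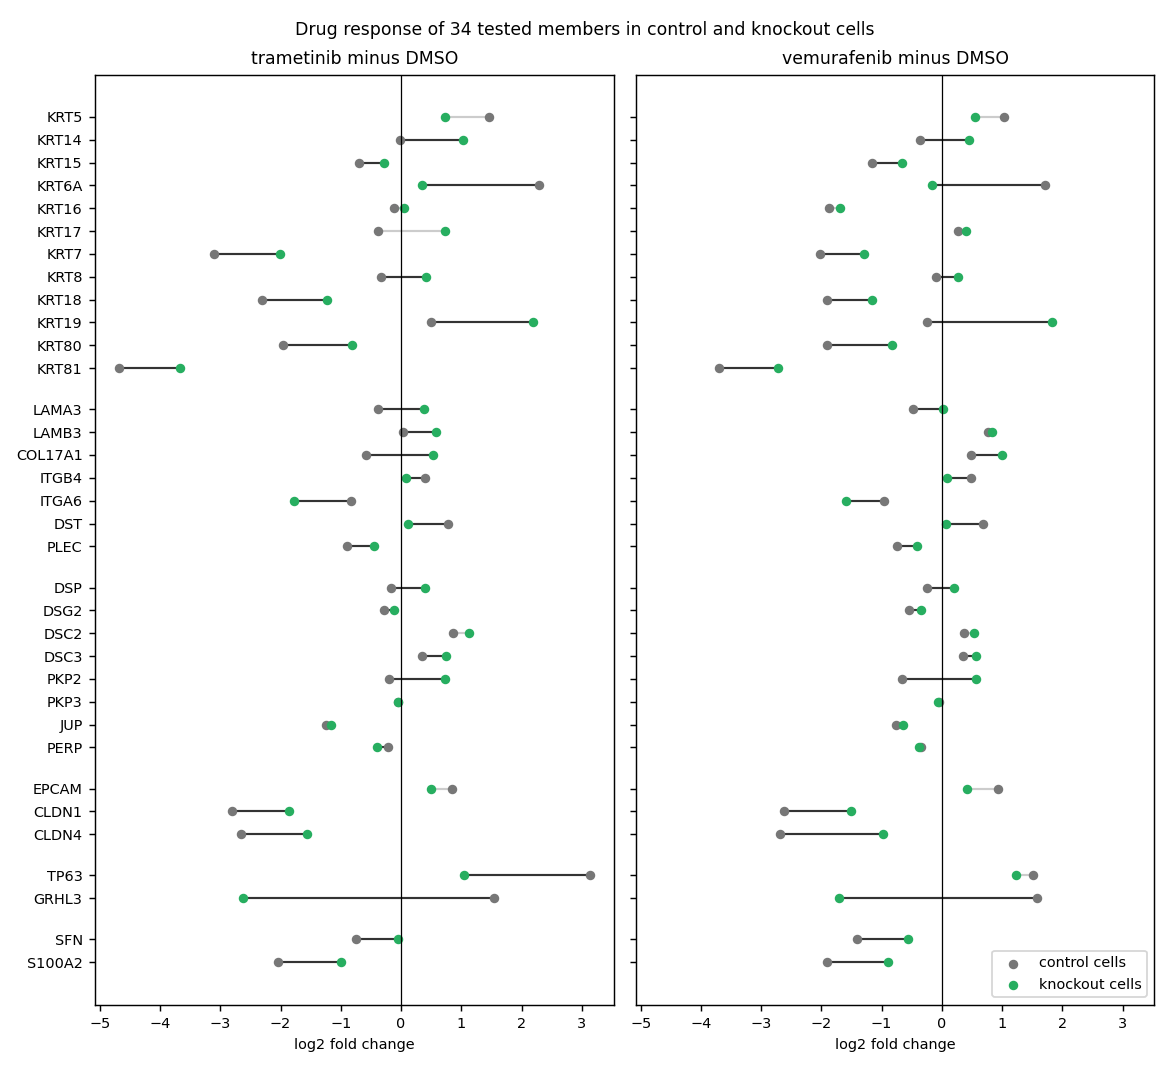
Drug responses of 34 tested members. The horizontal axis gives the log2 fold change of trametinib (left) or vemurafenib (right) against DMSO, with grey points for control cells, green points for knockout cells (mean of both guides) and a line between them that is dark where the difference was called. KRT18, KRT80, CLDN4 and S100A2 fell less in knockout cells, and GRHL3 lies on opposite sides of 0.

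KRT18, KRT80, CLDN4 and S100A2, which both drugs lowered in control cells, fell less in the knockout. The response of KRT18 to trametinib was -1.23 ± 0.026 in knockout cells against -2.32 in control cells, a difference of 1.09 ± 0.047 (adjusted p = 1.6e-24). KRT80 differed by 1.16 ± 0.053 in trametinib and 1.08 ± 0.053 in vemurafenib, CLDN4 by 1.09 ± 0.086 and 1.71 ± 0.085, and S100A2 by 1.04 ± 0.10 and 1.01 ± 0.095. With guide 2, KRT18 stood at 121, 127 and 120.4 CPM in trametinib, below the 187, 198 and 198 CPM of control cells in DMSO. JUP fell in both, and the differences of 0.09 ± 0.08 and 0.12 ± 0.077 did not pass.

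DSP, KRT8 and LAMA3 moved in opposite directions in control and knockout cells under trametinib. DSP was -0.17 ± 0.04 in control and 0.40 ± 0.025 in knockout cells, a difference of 0.56 ± 0.047 (adjusted p = 2.6e-14). KRT8 was -0.33 ± 0.042 and 0.42 ± 0.026, a difference of 0.75 ± 0.049, and LAMA3 was -0.38 ± 0.11 and 0.38 ± 0.065, a difference of 0.77 ± 0.13. In vemurafenib LAMA3 of knockout cells did not pass (0.02 ± 0.067). LAMB3 rose in knockout cells by 0.57 ± 0.025 in trametinib and 0.84 ± 0.025 in vemurafenib, and its difference from control cells passed in trametinib (0.55 ± 0.05) and not in vemurafenib (0.07 ± 0.048). SFN fell in control cells (-0.75 and -1.41) and was -0.06 ± 0.051 in trametinib in knockout cells, which did not pass, and -0.56 ± 0.053 in vemurafenib. PKP2 did not pass in control cells in trametinib (-0.20 ± 0.21) and rose in knockout cells (0.73 ± 0.09). In vemurafenib PKP2 fell in control cells (-0.66 ± 0.23), a call lost without replicate 1 of the control DMSO libraries (-0.41, adjusted p = 0.14) or replicate 2 of those in vemurafenib (-0.42, adjusted p = 0.10).

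GRHL3, ITGA6 and DST had lower responses in knockout cells than in control cells. GRHL3 rose in control cells from 0.152 to 0.454 CPM in trametinib and 0.471 CPM in vemurafenib (group means), and in knockout cells it fell (log2 -2.62 ± 0.12 and -1.70 ± 0.12). The responses differed by -4.16 ± 0.37 and -3.29 ± 0.37 (adjusted p = 1.2e-12 and 5.9e-10). The fold in control cells rests on 8, 21 and 5 counts in DMSO. The responses of ITGA6 in knockout cells were -1.77 ± 0.021 in trametinib and -1.59 ± 0.021 in vemurafenib, and they differed from those in control cells by -0.95 ± 0.035 and -0.63 ± 0.035. DST, which the drugs raised in control cells, rose by 0.12 ± 0.022 and 0.07 ± 0.022 in knockout cells, differences of -0.66 ± 0.039 and -0.62 ± 0.039.

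For 2 low members the differences rest on few counts. KRT19 differed by 1.69 ± 0.56 in trametinib and 2.07 ± 0.60 in vemurafenib, and without replicate 1 of the control DMSO libraries these were 0.78 and 1.15 and no longer called (adjusted p = 0.45 and 0.25). The difference in COL17A1 in vemurafenib, 0.51 ± 0.21, was lost under the replicate block (adjusted p = 0.0505) in a fit of the compared groups (0.058) and without any of 10 single libraries, with the value between 0.36 and 0.51, and it was 0.80 without replicate 2 of the control libraries in vemurafenib. The difference in COL17A1 in trametinib was 1.12 ± 0.24 (adjusted p = 1.1e-04).

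Other genes of the same pathways, taken from lists of names that were also chosen with earlier results of these data known, were examined beside the members. Of 16 genes of the hemidesmosome and basement membrane, all tested, 8 were called higher and 6 lower in the knockout in DMSO, 7 and 6 in trametinib, and 7 and 7 in vemurafenib (of all genes 29.3%, 27.1% and 27.3% higher and 57.9%, 55.9% and 55.6% called). FREM2, a basement membrane protein of the Fraser complex, went from 193 ± 10.3 CPM in control cells to 77.1 ± 5.31 with guide 1 and 25.0 ± 1.73 with guide 2 in trametinib (-2.14 ± 0.035), and NID1, the gene of nidogen, changed by -1.03 ± 0.023. COL4A6 rose in DMSO (1.40 ± 0.10) and FERMT1, the gene of kindlin-1, rose in trametinib (1.09 ± 0.038, against 0.51 in DMSO). The medians of this list were 0.12, 0.02 and 0.10.

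Of 11 further genes of desmosomes and adherens junctions 10 were tested, and 2 were called higher and 3 lower in DMSO, 5 and 2 in trametinib, and 4 and 3 in vemurafenib. The DMSO counts lie below the shares of all genes, 29.3% higher and 57.9% called, so this list is no result there. Of all genes 27.1% were higher and 55.9% called in trametinib, and 27.3% and 55.6% in vemurafenib. CDH3, the gene of P-cadherin of basal epithelium, stood at 1.39, 1.70 and 1.15 CPM in control DMSO libraries, 5.14, 5.22 and 5.53 CPM with guide 1 and 5.17, 5.29 and 4.83 CPM with guide 2, and rose by 1.87 ± 0.11, 2.38 ± 0.11 and 2.25 ± 0.11. NECTIN4 rose by 2.14 ± 0.092, 1.02 ± 0.07 and 1.52 ± 0.077. Of 12 tight junction genes 11 were tested, with 7 higher and 0 lower in DMSO (29.3% of all genes higher), 5 and 3 in trametinib (27.1%), and 4 and 2 in vemurafenib (27.3% higher, 55.6% called), the last near the share of all genes. TJP3, a scaffold protein of tight junctions, rose by 2.91 ± 0.18, 2.72 ± 0.092 and 2.47 ± 0.10, CLDN7 by 2.05 ± 0.22, 2.25 ± 0.14 and 1.91 ± 0.14, and CGN, the gene of cingulin, by 2.59 ± 0.091 in trametinib. The knockout effect on CGN in DMSO was 0.55.

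Of 12 further epithelial regulators 11 were tested, with 7 higher and 3 lower in DMSO (29.3% of all genes higher, 57.9% called), 6 and 4 in trametinib (27.1% and 55.9%), and 5 and 4 in vemurafenib (27.3% and 55.6%). ELF3, an Ets factor of epithelia, went from 0.640 ± 0.0719 CPM in control cells to 4.52 ± 0.180 with guide 1 and 8.72 ± 0.294 with guide 2 in trametinib (3.29 ± 0.14). EHF rose by 2.04 ± 0.18 in trametinib and OVOL2 by 1.64 ± 0.25 in DMSO. Of 22 genes of the cornified envelope and of epidermal differentiation 11 were tested, with 3 higher and 1 lower in DMSO, which is not above the share of all genes (29.3% higher, 57.9% called), 5 and 0 in trametinib (27.1% and 55.9%), and 6 and 2 in vemurafenib (27.3% and 55.6%). PPL, the gene of periplakin, rose by 2.71 ± 0.25 in trametinib, and TGM1, the transglutaminase of keratinocytes, by 2.46 ± 0.15. In DMSO the knockout effects were 0.17 for PPL and 0.33 for TGM1. Of 20 other keratins 12 were tested, with 10 higher and 1 lower in DMSO (29.3% of all genes higher) and 7 higher and 0 lower in each drug (27.1% in trametinib and 27.3% in vemurafenib). KRT6B went from 0.879 ± 0.213 CPM in control DMSO libraries to 5.33 ± 0.165 with guide 1 and 3.89 ± 0.291 with guide 2 (2.38 ± 0.13), and KRT86, which shares sequence with KRT81, rose by 1.52 ± 0.28 in trametinib.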

How the data were processed

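The files hold whole-number read counts per gene for 27 libraries, deposited by the authors with no normalization. Per the labels' protocols, RNA was extracted with a column kit and made into stranded mRNA libraries. Per the submitters' processing notes, bcl2fastq, HISAT2 and HTSeq were used with hg38, with no versions, and the sources used here name no strand setting, annotation release or rule for reads that fit several genes. From these counts, edgeR 4.0.16 in R 4.3.3 fitted 9 group means with 18 residual degrees of freedom (TMM scaling, the default low-count filter, robust quasi-likelihood test, Benjamini-Hochberg adjustment over 25199 genes). The knockout effect is the mean of both guides minus control, and DESeq2 1.42.0 was an alternative. The fit was tested on simulated counts. Group labels came from the sample titles. All members were accounted for, and those with a group mean of 1 CPM or more and a called 2-fold change in a drug or knockout comparison were given library by library, as were a few partners in the same junction that fall outside this rule. Of each pathway list at most 4 genes per comparison were eligible to be named, those with the largest called change of at least 2-fold and a group mean of 1 CPM or more. A few results on single genes are not reported here. The members and lists were chosen with earlier results of these data known. Positions and symbols come from GENCODE v29 and promoters from RefSeq. Totals of 67502300 to 92513726 counts give 3 counts a level of 0.0307 to 0.0447 CPM.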

Additional observations from a re-analysis of the deposited data

Results flagged for a closer look

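In several members the response to a drug had opposite signs in control and knockout cells, and edgeR's test of the difference passed. In trametinib these were COL17A1 (difference 1.12, log2, knockout minus control), DSP (0.56), GRHL3 (-4.16), KRT8 (0.75) and LAMA3 (0.77). In vemurafenib they were DSP (0.45), GRHL3 (-3.29), KRT14 (0.81), KRT8 (0.37) and PKP2 (1.22). The fall of PKP2 in control cells behind the last of these (-0.66) was not called without replicate 1 of the control DMSO libraries (-0.41) or replicate 2 of those in vemurafenib (-0.42). The fall of COL17A1 in control cells in trametinib (-0.58) was not called in a fit of the compared groups alone. Nor was it called without replicate 2 or 3 of the control DMSO libraries or replicate 2 of those in trametinib. For KRT8 in vemurafenib the fall in control cells (-0.10) was not called with no low-count filter. Nor was it called without replicate 2 or 3 of the control libraries in DMSO or in vemurafenib. GRHL3 in control cells rests on few counts. Seen as the knockout effect, DST was higher in the knockout in DMSO and lower in trametinib (difference -0.66) and in vemurafenib (difference -0.62), and KRT14 was lower in DMSO and higher in trametinib (difference 1.04). The lower KRT14 level lay mainly in guide 2 and the higher one in guide 1. In DMSO its mean was 8.53 CPM with guide 1 and 3.87 with guide 2, against 8.99 in control cells. In trametinib it was 14.7 CPM with guide 1 and 9.23 with guide 2, against 8.88 in control cells. ITGA6 was above control with guide 1 and below it with guide 2 in DMSO (guide 2 minus guide 1, -0.62).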

How the results depend on the processing

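Other size factors, DESeq2, no low-count filter, a fit of the compared groups alone, a replicate block and leaving out each library were tried. None of the 26 counts of called members moved by 1.5 times. Of 337 calls of single members none reversed and 43 lost their call under at least 1 alternative, 42 of them when a library was left out. Values that did not pass changed sign when single libraries were left out: trametinib in control cells for PKP2 (-0.40 to 0.044), KRT14 (-0.16 to 0.12) and LAMB3 (-0.0100 to 0.081), and vemurafenib in knockout cells for LAMA3 (-0.00081 to 0.052). Replicate numbers did not pair the libraries: over 108 same-numbered pairs the deviations correlated between -0.053 and 0.054, and 10 of 27 libraries were closest to their own number. With the replicate block, 10 keratins were called in the knockout in trametinib against 12 without it, and the calls of KRT5 (adjusted p = 0.054) in vemurafenib in control cells and DST (0.050) between the drugs were lost. Depth limits KRT5, KRT16, KRT17, KRT19, TP63 and GRHL3 in control cells, which rest on few counts.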
